A study of Mus musculus with 6 samples.

Results

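miR-155, miR-146a, miR-146b, miR-223 and miR-150 are microRNAs best known from cells of the immune system, and they were followed here in vesicles from mouse muscle. A microRNA is a short RNA cut from a hairpin precursor that pairs with messenger RNAs and lowers their output, mainly through its seed at bases 2 to 8. Each hairpin has 2 arms, and the arm that is usually loaded and kept is called the guide arm here. The members were chosen by name: 5 guide arms (miR-155-5p, miR-146a-5p, miR-146b-5p, miR-223-3p and miR-150-5p) and the 5 loci of their opposite arms, found on the same chromosome and strand within 80 bp. These 10 loci stand among 2110 in the deposited table.

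Small RNA was sequenced from exosomes, small vesicles released by cells, that had been collected from young and from old mouse muscle. There were 3 libraries of each age, and no treatment, genotype or strain is named in the labels. Which ages, which muscles and which vesicle isolation were used is not given in the sources used here. Nothing says that the replicates came from separate animals, so every p-value reflects the spread among the 6 libraries alone, and that spread may be technical.

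As background, these miRNAs mark different immune cells and different states of them. miR-155 is made from the transcript Mir155hg and is induced when B cells, T cells and macrophages are activated, where it lowers brakes on signalling such as Socs1. miR-146a and miR-146b are induced through NF-kB and act on Traf6 and Irak1, so that they damp the signalling that induces them. miR-223 is typical of neutrophils, other myeloid cells and platelets, and miR-150 of mature lymphocytes. All of them have been described in vesicles, and miR-155 and the miR-146 pair also occur outside blood cells.

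The mature sequences show which members can act on the same targets and which could be mistaken for each other in alignment. RefSeq (GRCm38.p6) gave a sequence for 9 of the 10 members. The guide arms are written 5′ to 3′ with the seed in capitals.
miR-155-5p: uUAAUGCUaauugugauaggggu
miR-146a-5p: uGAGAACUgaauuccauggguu
miR-146b-5p: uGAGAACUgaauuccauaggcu
miR-223-3p: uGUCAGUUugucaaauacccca
miR-146a-5p and miR-146b-5p share their seed and differ at 2 of 22 positions, G18A and U21C, with miR-146a-5p as the reference and positions counted from its 5′ end. Both differences lie in the last bases, so that a read cut short at its 3′ end can lose one or both of them. Among the 1675 mature miRNAs of the table with a RefSeq sequence, none other shared the seed of miR-155-5p, miR-223-3p or the miR-146 pair, and none other lay within 3 mismatches of them when compared from the first base without gaps.

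The hairpins show on which side the guide arm lies, which matters for the arm counts further on. They are written 5′ to 3′ with the guide arm in capitals.
Mir155: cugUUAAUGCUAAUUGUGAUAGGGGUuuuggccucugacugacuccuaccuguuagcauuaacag
Mir223: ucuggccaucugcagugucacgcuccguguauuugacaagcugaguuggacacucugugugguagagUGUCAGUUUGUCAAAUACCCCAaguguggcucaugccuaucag
In Mir155 the guide takes bases 4 to 26 of 65, on the 5′ side, and in Mir223 it takes bases 68 to 89 of 110, on the 3′ side. The guide arms of Mir146 and Mir146b also lie on the 5′ side, at bases 6 to 27 of 65 and 29 to 50 of 109.

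The 5 hairpins lie on 5 chromosomes (mm10), so none is a neighbour of another. miR-155-5p (MIMAT0000165, chromosome 16, 84714143 to 84714165, plus strand) lies in exon 2 of the non-coding gene Mir155hg. miR-223-3p (MIMAT0000665, chromosome X, 96242884 to 96242905, plus strand) lies in an exon of F630028O10Rik, a non-coding gene on the same strand. miR-146b-5p (MIMAT0003475, chromosome 19, 46342790 to 46342811, plus strand) lies in an intron of the protein-coding gene Mfsd13a. miR-146a-5p (MIMAT0000158, chromosome 11, 43374435 to 43374456, minus strand) and miR-150-5p (MIMAT0000160, chromosome 7, 45121762 to 45121783, plus strand) lie in no annotated gene other than their own miRNA genes Mir146 and Mir150. None of the 10 loci overlaps another locus of the table, a position that left 104 of 106 overlapping loci with no count.

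The libraries held between 904892 and 1706396 counts, the lowest in old replicate 1. That library also stood apart in composition, with 35.4% of its counts from miR-21a-5p against 49.0% to 52.9% in the other 5. Skeletal muscle miRNAs were plentiful, at a summed 50849 to 61142 CPM (counts scaled to a common library size, as counts per 1e+06) in young and 49519 to 90418 in old. Of their 6 loci that passed the filter on low counts, 4 rose by edgeR (miR-1a-3p, miR-499-5p and both copies of miR-133a-3p, which share a mature identifier), where 3.46% of all tested loci rose. Leukocyte miRNAs outside the members (miR-142a-5p, miR-342-3p and miR-142a-3p, the last at 0 in an overlapping locus) summed to 241 to 314 CPM in young and 189 to 300.5 in old, with none of the 2 tested past the test. miR-342-3p was the larger part of this sum and was measured lower in old (log2 fold change -0.40), while miR-142a-5p was measured higher (0.79). Red blood cell miRNAs summed to 40575 to 42835 CPM in young and 41265 to 48359 CPM in old, with miR-486a-5p at 0 in an overlapping locus. Both endothelial loci, which overlap others, were also at 0. Smooth muscle and fibroblast miRNAs summed to 31242 to 32794 CPM in young and 40887 to 45541 CPM in old, with no overlap between the ages. miR-143-3p was the largest part of this sum, at a mean of 14954 CPM in young and 24356 in old, and was the 1 of their 7 tested loci that rose. The 7 loci did not share a direction, with 4 measured higher in old and 3 lower. Those lower were both copies of miR-199a-5p (log2 fold change -0.49 and -0.47) and miR-214-3p (-0.40). The part of these cell types in the results was not tested.

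The guide arms were minor components of a pool in which miR-21a-5p was the most abundant miRNA. All 5 are 22 or 23 bases long, so CPM on TMM-scaled library sizes compares their levels without a length correction. miR-155-5p was the most abundant, with a mean over all libraries of 560 ± 182 CPM (SD, n = 6), followed by miR-223-3p with 265 ± 26.3, miR-150-5p with 236 ± 39.9, miR-146b-5p with 81.9 ± 21.8 and miR-146a-5p with 26.2 ± 8.10. Among 1966 mature miRNAs, miR-155-5p ranked 61 to 71 in the young and 79 to 87 in the old libraries. miR-223-3p and miR-150-5p were neighbours that did not separate: miR-223-3p had 0.897 to 1.51 times the counts of miR-150-5p and was the higher in 5 of 6 libraries. The other steps of the order held in 6 of 6 libraries. miR-150-5p had 2.16 to 3.89 times the counts of miR-146b-5p, and miR-146b-5p had 2.27 to 3.78 times those of miR-146a-5p.

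**Figure D1:**
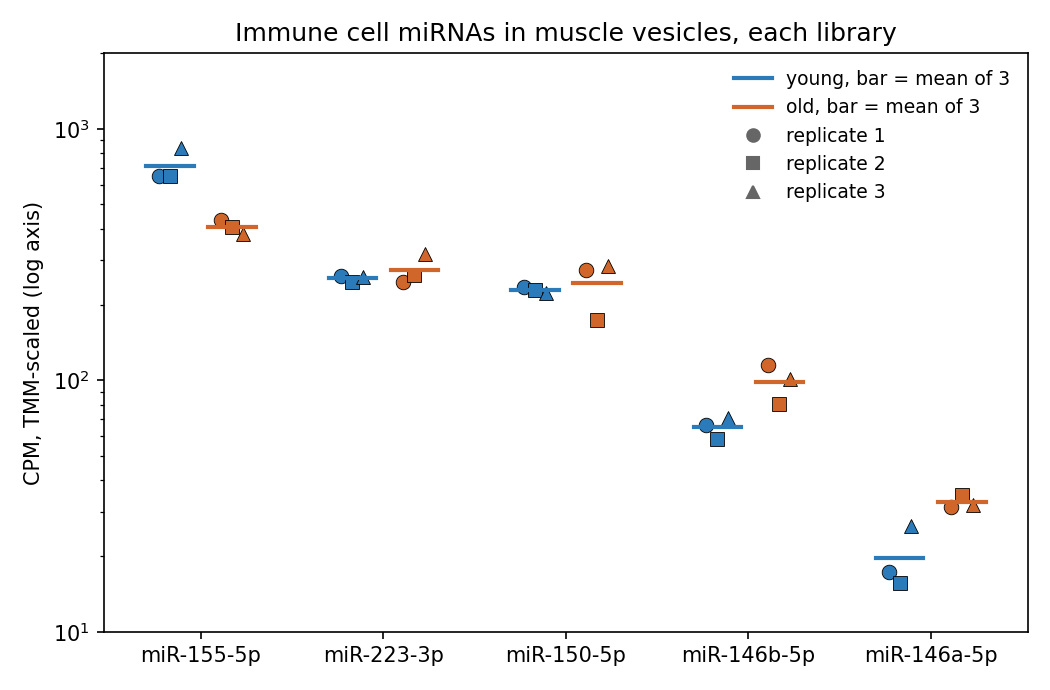
CPM of the 5 guide arms (log axis) in each young and old library, with bars at the group means and symbols for the replicate numbers. The 3 old values of miR-155-5p, 382 to 434, lie below the 3 young ones, 646 to 841, while the groups of miR-223-3p and miR-150-5p overlap.

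Old and young vesicles were compared to see which of these miRNAs changes in relative amount with age. miR-155-5p, which is induced in activated immune cells and also occurs outside blood cells, was lower in vesicles of old muscle, at 0.571 times the young level. The feedback miRNAs miR-146a-5p and miR-146b-5p were measured higher, at 1.66 and 1.51 times, but did not pass the test over all loci. The myeloid miR-223-3p and the lymphoid miR-150-5p differed by 1.08 and 1.07 times. By edgeR's quasi-likelihood test with Benjamini-Hochberg adjustment over 347 loci, 1 of the 5 guide arms fell, 0 rose and 4 did not pass, where 0.865% of all tested loci fell, 3.46% rose and 4.32% passed in either direction. The 15 calls over all loci were 12 higher and 3 lower (11 and 6 with upper-quartile scaling, 13 and 8 without miR-21a-5p in the library sizes). This background moved with single libraries: the calls came to 6, 8 and 8 without young replicates 1, 2 and 3, and to 45, 5 and 29 without old replicates 1, 2 and 3, of which 0 were lower without old replicate 2 and 20 without old replicate 1. In a vesicle pool a lower value cannot tell fewer vesicles from a cell type apart from less of the miRNA in each.

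miR-155-5p had 646, 651 and 841 CPM in young replicates 1 to 3, and 434, 405 and 382 CPM in old replicates 1 to 3. Every old library was below every young one, and young replicate 3 was the highest of all. The log2 fold change was -0.81 ± 0.18 (SE), with a 95% interval of -1.18 to -0.44 and an adjusted p of 0.0135 by edgeR. Raw counts were 937, 1082 and 1311 in young and 430, 566 and 492 in old. Expressed as a share of the counts that are not miR-21a-5p, it took 0.133%, 0.132% and 0.171% in young against 0.0736%, 0.0782% and 0.0755% in old, so the groups are also apart when the dominant miRNA is set aside. Among the fits with 1 library left out, the call by edgeR was lost without young replicate 3 (log2 fold change -0.68, adjusted p = 0.0860) and without old replicate 2 (-0.80, adjusted p = 0.1001). It was not lost without old replicate 1 (-0.84, adjusted p = 0.0005).

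The NF-kB feedback miRNAs were measured in the opposite direction to miR-155-5p. miR-146b-5p had 66.2, 58.4 and 70.6 CPM in young replicates 1 to 3 and 115, 80.2 and 101 CPM in old replicates 1 to 3. The groups did not overlap, and old replicate 1 was the highest. Its log2 fold change of 0.60 ± 0.23 (SE, 95% interval 0.11 to 1.09, not adjusted for the number of loci) did not pass over all loci (adjusted p = 0.139 by edgeR).

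miR-146a-5p, the paralog with the same seed, had 17.2, 15.6 and 26.3 CPM in the young and 31.3, 35.1 and 31.8 CPM in the old libraries, again with no overlap. Its log2 fold change of 0.73 ± 0.32 (SE, 95% interval 0.06 to 1.41) did not pass either (adjusted p = 0.181 by edgeR), on counts of only 25 to 49 per library. Groups without overlap were found for 3 of the 5 guide arms: lower in old for miR-155-5p, where 13.0% of all tested loci had this, and higher for the miR-146 pair, where 14.1% did. In either direction 27.1% of all tested loci had groups without overlap.

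Summed over the shared seed, the miR-146 pair had 83.4, 74.0 and 96.9 CPM in young and 146.2, 115 and 133 CPM in old. Every old library was above every young one, which follows from each arm by itself, and neither arm passed the test. The ratio of miR-146b-5p to miR-146a-5p was 3.42 ± 0.64 in the young libraries and 3.04 ± 0.70 in the old ones (SD, n = 3; exact permutation p = 0.5, two-sided). The difference between the ages in the make-up of the pair was smaller than its spread between libraries.

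miR-223-3p, the myeloid and platelet miRNA, had 260, 247 and 257 CPM in young and 246, 261 and 317 CPM in old replicates 1 to 3. The groups overlapped, with old replicate 3 the highest and old replicate 1 the lowest. Its log2 fold change was 0.11 ± 0.18 (SE, adjusted p = 0.799 by edgeR). The 95% interval of the old to young ratio, 0.824 to 1.41, includes no change and also a rise of that size.

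miR-150-5p, the lymphocyte miRNA, had 234, 228 and 222 CPM in young and 274, 173 and 284 CPM in old. The young libraries lay within the range of the old ones, and old replicate 2 was the lowest of all 6. Its log2 fold change was 0.09 ± 0.21 (SE, adjusted p = 0.854 by edgeR), and the 95% interval of the ratio was 0.785 to 1.45. Both estimates moved with single libraries. Without old replicate 2 miR-150-5p came to 0.29, without old replicate 1 to 0.01 and without old replicate 3 to -0.06, and none of these passed. miR-223-3p came to 0.20 without old replicate 1 and -0.01 without old replicate 3.

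**Figure D2:**
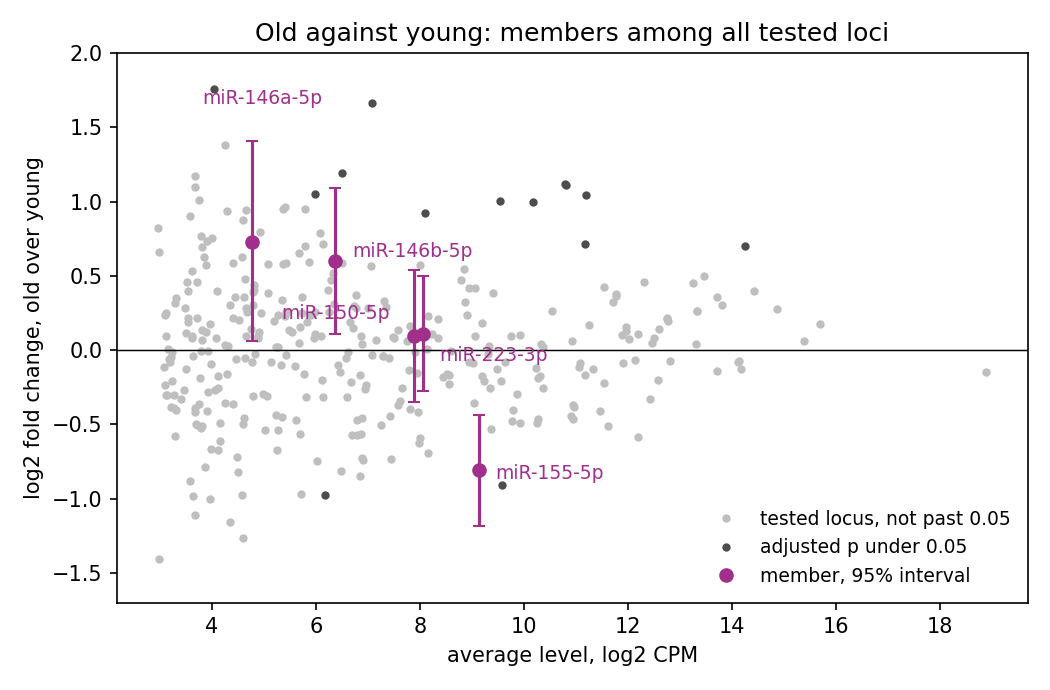
Log2 fold change of old over young against the average level in log2 CPM for the 347 tested loci, with the 5 guide arms in purple and their 95% intervals, which are not adjusted for the number of loci. miR-155-5p at -0.81 is the only one of the 5 past an adjusted p of 0.05, and the intervals of miR-223-3p and miR-150-5p lie across 0.

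The spread among libraries of one age is given as a description, beside the spread that counting alone would give if reads were independent molecules, which they need not be. In young vesicles miR-150-5p and miR-223-3p varied by 2.73% and 2.75% of their means, against 5.31% and 5.03% from counting. In old vesicles they varied by 25.1% and 13.5%, against 5.84% and 5.43% from counting. miR-155-5p varied by 15.6% in young, where replicate 3 was the highest, and by 6.36% in old, against 3.00% and 4.49% from counting. miR-146b-5p varied by 9.51% in young and 17.7% in old, against 9.95% and 9.18% from counting. The scarce miR-146a-5p varied by 29.1% and 6.32%, against 18.1% and 15.7% from counting. With 3 libraries a group these spreads are themselves imprecise, no test of their difference was made, and no order of the members is read from them.

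Ratios within a library were used to ask whether miR-155-5p changed differently from the other members, because such ratios do not depend on scaling between libraries. For every count of miR-223-3p there were 2.48, 2.64 and 3.27 counts of miR-155-5p in young replicates 1 to 3 and 1.76, 1.55 and 1.21 in old replicates 1 to 3. For every count of miR-150-5p there were 2.75, 2.85 and 3.79 in young and 1.58, 2.34 and 1.34 in old. In both ratios every old library was below every young one. miR-155-5p alone also separated the ages, and how often its ratio to other tested loci would do so was not tested.

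Against the miR-146 miRNAs the shift was wider, which follows from their own higher values in old and is no separate result. miR-155-5p outnumbered miR-146b-5p 9.72, 11.1 and 11.9 times in the young libraries and 3.76, 5.04 and 3.77 times in the old ones. It outnumbered miR-146a-5p 36.8, 40.9 and 31.6 times in young and 13.7, 11.4 and 11.9 times in old. Set against the sum of the pair, the ratio was 8.41 ± 0.58 in the young libraries and 3.12 ± 0.35 in the old ones (SD, n = 3).

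On the log2 scale, with 0.5 added to each count, the mean ratio in old minus that in young was -0.90 against miR-223-3p, -0.86 against miR-150-5p, -1.39 against miR-146b-5p and -1.56 against miR-146a-5p. Each of these 4 differences had an exact two-sided permutation p of 0.1, also after Benjamini-Hochberg adjustment over the 4 ratios. That is the smallest p that 3 against 3 libraries can give, so no such test could pass 0.05, and the 4 ratios share miR-155-5p. Without old replicate 1 the differences were -1.02, -0.81, -1.32 and -1.64 in the same order.

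**Figure D3:**
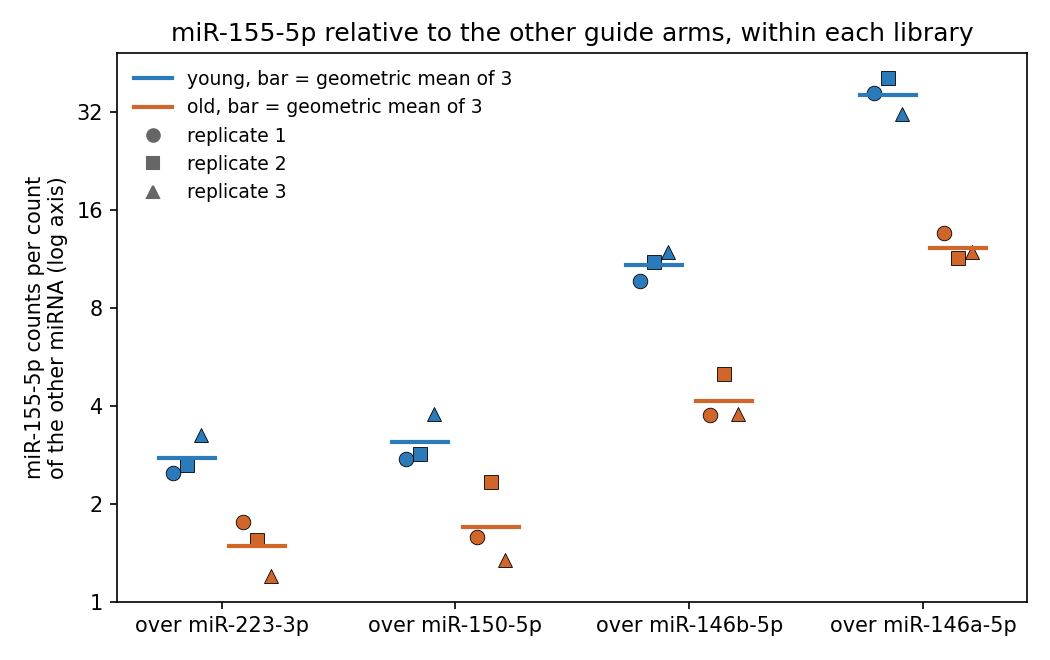
Counts of miR-155-5p per count of each other guide arm (log axis) within each library, with bars at the geometric means of 3 libraries and symbols for the replicate numbers. For all 4 partners the 3 old libraries lie below the 3 young ones, with the widest separation for miR-146a-5p (11.4 to 13.7 against 31.6 to 40.9). miR-155-5p alone also separates the ages, as does each miR-146 arm in the other direction. Ratios of miR-155-5p to loci outside the members were not tested.

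As a set, the 5 guide arms summed to 1224, 1200 and 1417 CPM in young and 1100, 955 and 1115 CPM in old replicates 1 to 3. Of their counts, miR-155-5p made up 55.5% ± 3.44 in the young libraries and 38.7% ± 4.14 in the old ones (SD, n = 3). The other 4 guide arms together had 567 ± 16.3 CPM in young and 650 ± 92.9 in old, with groups that overlapped. Without miR-155-5p the sum was thus not lower in old. The median log2 fold change of the 5 was 0.11, beside 0.04 over all 347 tested loci.

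Opposite arms were nearly absent, and none passed the filter on low counts. miR-146a-3p, miR-146b-3p and miR-150-3p had 0 counts in all 6 libraries, beside 213, 659 and 1945 counts of their guide arms. A count of 0 allows an opposite-arm share of up to 1.41%, 0.455% and 0.154% of both arms (3 counts of the total). These limits cover counting error only, since reads without molecular identifiers are not independent molecules, and the intervals below have the same limit.

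miR-155-3p had 4 counts beside 4818 of miR-155-5p, 3 of them in young replicate 2 and 1 in old replicate 3. That is a share of 0.0830% (exact 95% binomial interval 0.0226% to 0.212%).

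miR-223-5p was the one opposite arm with more than 10 counts, 36 in all beside 2205 of miR-223-3p, a share of 1.61% (exact 95% binomial interval 1.13% to 2.22%). It had 7, 16 and 5 counts in young replicates 1 to 3 and 4, 3 and 1 counts in old replicates 1 to 3. Its share of the hairpin's counts was 1.82%, 3.76% and 1.23% in the young and 1.61%, 0.815% and 0.244% in the old libraries. Old replicate 1 lay among the young values, so the groups overlapped. The young libraries averaged 2.27% ± 1.32 and the old ones 0.891% ± 0.687 (SD, n = 3; exact permutation p = 0.2, two-sided, the only hairpin tested). The smallest p of this design is 0.1, so the test could neither pass 0.05 nor show that the shares are alike.

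Other miRNAs tied to blood cells were measured as well. Of 10 further miRNAs known from haematopoietic cells, at 12 loci, 8 loci passed the filter on low counts; 0 rose, 0 fell and 8 did not pass, with 4 positive and 4 negative values and a median of -0.07. Over all tested loci 4.32% passed, so a count of 0 among 8 is near that background and is not a result about this list. miR-142a-5p, found in all blood lineages, was at 21.4 ± 3.72 CPM in young and 36.8 ± 16.5 CPM in old libraries (SD, n = 3), a log2 difference of 0.79 (edgeR adjusted p = 0.181). Its groups did not overlap, with old above young, where 14.1% of all tested loci had this. The lymphoid miR-342-3p, close to miR-150-5p in level, was at 252 ± 37.2 CPM in young libraries and 192 ± 72.0 CPM in old ones, a log2 difference of -0.40 (edgeR adjusted p = 0.353). Both arms of miR-511, which lies in an intron of the macrophage mannose receptor gene Mrc1, had 0 counts in all 6 libraries at loci that overlap no other. The most abundant of this list was miR-181a-5p, which many other tissues also express, with 3071 ± 460 CPM in young and 3942 ± 1048 CPM in old libraries at Mir181a-1. Its log2 difference was 0.36 there (edgeR adjusted p = 0.296) and 0.38 at the identical copy at Mir181a-2.

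The next list held other miRNAs that NF-kB or Toll-like receptor signals induce. Of 11 such miRNAs, at 14 loci, 9 loci passed the filter; 0 rose, 0 fell and 9 did not pass, with 2 positive and 7 negative values and a median of -0.15. Beside the 4.32% of all tested loci that passed, 0 of 9 is again near the background. miR-99b-5p, from a cluster with let-7e and miR-125a that is induced in macrophages, was at 5644 ± 1042 CPM in young and 3754 ± 198 CPM in old libraries (SD, n = 3). Its log2 difference was -0.59 with an SE of 0.17 (edgeR adjusted p = 0.0545). From the same cluster, let-7e-5p differed by -0.12 and miR-125a-5p by -0.25 (edgeR adjusted p = 0.811 and 0.504). In the other direction, miR-212-3p was measured higher in old by 0.95 (edgeR adjusted p = 0.0691). miR-21a-5p, the most abundant of the list, differed by -0.15 on the log2 scale (edgeR adjusted p = 0.769). The 3 loci of miR-9-5p were at 0, each of them overlapping another locus. miR-147-3p, a miRNA of activated macrophages, had 7 counts in all libraries together.

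The miRNAs whose log2 CPM ran most like each member over the 6 libraries were looked up among 305 other tested mature miRNAs, as a description of libraries that share depth and composition. For miR-155-5p these were miR-140-3p (r = 0.96) and miR-181b-5p at Mir181b-2 (r = 0.92), with log2 fold changes of -0.36 and -0.26 that did not pass (adjusted p = 0.221 and 0.373 by edgeR). For miR-146a-5p they were miR-6239 (r = 0.97), an entry that may be a fragment of another RNA and that rose (0.92, adjusted p = 0.0244 by edgeR), and the NF-kB list member miR-212-3p (r = 0.95; 0.95, adjusted p = 0.0691). For miR-146b-5p they were miR-133a-3p at Mir133a-2 (r = 0.95), a muscle miRNA that rose (1.11, adjusted p = 0.0009 by edgeR), and miR-93-5p (r = 0.94; 0.32, adjusted p = 0.262).

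For miR-223-3p the most alike were miR-1843a-3p and miR-744-3p (r = 0.96 for each), and for miR-150-5p miR-471-3p (r = 0.90) and miR-677-5p (r = 0.87), all 4 of them at mean levels under 70 CPM in both ages and none past the test. Among the members themselves, miR-146a-5p and miR-146b-5p ran most alike (r = 0.79), and miR-155-5p ran opposite to both (r = -0.66 and -0.74). miR-223-3p and miR-150-5p had r = 0.37. The 6 points of each value are 2 groups of 3 that also differ in age.

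**Figure D4:**
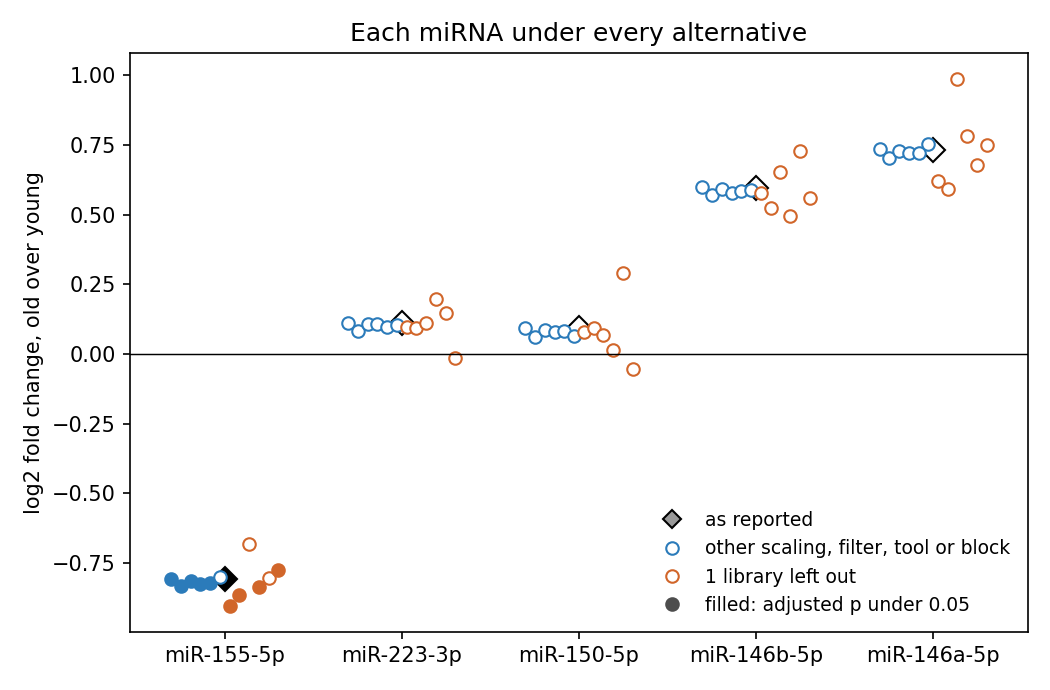
Log2 fold change of old over young for each guide arm as reported (diamond), with other scaling, filters, tools or the replicate block (blue) and with 1 library left out (orange), filled where the adjusted p was under 0.05. miR-155-5p stayed between -0.90 and -0.68 and had an open symbol in 3 of 12 alternatives, and no alternative gave a filled symbol for the other 4.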

How the data were processed

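The authors used featureCounts version 2.0.6 to count reads at mature miRNA loci, per the file headers, with no strand, overlap or multi-mapping option. The deposited values are these raw counts. Reads were aligned with BWA to mm10, per the submitters' processing notes; its version, like the adapter removal, is not given in the sources used here. Loci were named by position from RefSeq (GRCm38.p6; 1734 loci) or GENCODE M21 miRNA genes (364 loci), and 12 had no name.

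Old was tested against young with edgeR 4.0.16 (R 4.3.3): filterByExpr defaults (minimum count 10, minimum total 15), TMM, quasi-likelihood test, Benjamini-Hochberg adjustment over 347 loci, threshold 0.05. Ratios and arm shares had exact permutation tests in Python 3.11.15. The procedure was tested on simulated data. Alternatives were DESeq2 1.42.0, other scaling and filters, summed copies, a replicate block and 1 library left out.

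The members and lists were chosen with earlier results of these data known. Named miRNAs were the members, the 2 miRNAs most like each guide arm (log2 CPM, prior count 2), and, of each of the haematopoietic and NF-kB lists, the 2 most abundant loci and any past the threshold. Others, such as miR-1a-3p, miR-499-5p, miR-143-3p, miR-142a-5p, miR-342-3p, miR-511, miR-9-5p and miR-147-3p, were chosen after their values were seen.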

Additional observations from a re-analysis of the deposited data

How the results depend on the processing

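The direction of miR-155-5p, miR-146a-5p and miR-146b-5p held in all 12 alternatives of the edgeR fit, and that of miR-223-3p and miR-150-5p in 11 of 12. Leaving out 1 library could hardly turn the first 3, whose groups do not overlap. miR-155-5p stayed past the threshold in 9 of 12. Leaving out 1 library gave it -0.90 to -0.68 (adjusted p from 0.0005 to 0.1001), and DESeq2 gave -0.81 (adjusted p = 0.0005). With the replicate block it was -0.80 (adjusted p = 0.0864). The labels do not say that the replicate numbers pair the libraries. Deviations of same-numbered young and old libraries from their group means correlated at -0.13, 0.02 and -0.15 over 347 loci. No library correlated best with the library of its own number. With 3 libraries of each age, these values cannot decide whether the numbers mark pairs. The ratios of miR-155-5p and the miR-223 arm share give the same difference with the block by construction, and its smallest possible p is 0.25.

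The count past the threshold over all loci, 15, was 23 with DESeq2 (14 higher, 9 lower) and 6 with the replicate block. Leaving out 1 library moved it to between 5 and 45: 6, 8 and 8 without young replicates 1, 2 and 3, and 45, 5 and 29 without old replicates 1, 2 and 3. The cause was not tested.

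Differences in the 4 ratios could not change sign with 1 library left out, since no old library overlaps a young one, so their sign there shows no stability; adding 1 count in place of 0.5 left -0.90, -0.86, -1.39 and -1.55. The difference in the arm share of miR-223, -1.38 percentage points, ranged from -1.90 to -0.64 with 1 library left out, the last without young replicate 2. No opposite arm passed the filter; without a filter miR-223-5p differed by -1.41 on the log2 scale (edgeR adjusted p = 0.557). Counts were low for miR-146a-5p (25 to 49 per library) and the opposite arms (36 or fewer in all).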
